A study of Mus musculus with 6 samples.

Results

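The genes described here encode the route by which a cell takes up glucose, splits it to pyruvate by glycolysis, and then turns the pyruvate into lactate or passes it to the mitochondria. They were chosen by name, as 36 gene symbols of this pathway, of 22869 genes with a symbol in the deposited table, and where a gene had several transcript rows the most abundant one stood for it (9 of the 36). The choice was made with earlier results of these data known: the gene for aldolase C (Aldoc) had been seen to be higher in somatotropes, so its contrast between the cell types is given below as a description. Where a fit over all genes counts it, the count supports nothing. Of the 36 genes, 31 had a mean of at least 1 FPKM (the number of sequenced fragments scaled to transcript length and library size) and entered the test over all genes, and Slc2a4, Hk2, Pfkfb1, Pgam2 and Slc16a3 did not.

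PolyA RNA was sequenced from the pituitary cells that make growth hormone (somatotropes) and from those that make prolactin (lactotropes), with biological replicates 1 to 3 of each type. Every library came from females of 1 strain, a CD1 x C57BL/6 hybrid, whose pituitaries were taken at an age of 6 to 8 weeks and sorted by FACS, and the labels name no treatment. They do not say which marker or gate was used, or how many animals a library holds, and the spread between libraries may in part be technical. The RNA was amplified before library preparation, and the number of fragments behind the values is unknown.

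The hormone genes followed the labels, with Gh at 19384 to 84909 FPKM in somatotropes and 3954 to 7623 FPKM in lactotropes, and Prl at 8709 to 24481 FPKM in somatotropes and 25171 to 195325 FPKM in lactotropes. The titles give a replicate number and state no pairing. The 2 libraries of replicate 1 (r = 0.930) and those of replicate 2 (r = 0.894) resembled each other most. Those of replicate 3 did so less (r = 0.782), and somatotrope 3 was closer to somatotrope 2 (r = 0.854) and lactotrope 2 (r = 0.848). Both replicate 1 libraries lay above the other 4 for 57.7% of the 11642 genes tested. In lactotrope 3, 14.94% of the genes tested were listed at 0, while the remaining 5 libraries had 0.2319% to 2.955%, so a 0 is given as listed and not as absence. The summed level of 12 leukocyte markers was 370 to 7410 FPKM in somatotropes and 1047 to 15942 FPKM in lactotropes, with none at 0 in any library. The sum of 7 erythroid markers was 4259 and 3529 FPKM in somatotrope 3 and lactotrope 3 and 5.33 to 325 FPKM in the other libraries. Prl made up 46.64% and 52.96% of the summed FPKM of lactotropes 1 and 3 and 3.383% to 12.11% elsewhere, and every other gene's FPKM is relative to totals that include it.

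Most steps of glycolysis can be run by several enzymes, called isoforms here, that are encoded by separate genes and differ in kinetics, regulation and tissue. Cells that rely on rapid lactate production, resting muscle, brain and liver each use a characteristic set, so the isoforms at a step are a common way of describing a cell's glucose metabolism. In secretory pituitary cells, glycolysis and mitochondrial respiration supply the ATP that hormone synthesis, electrical activity and exocytosis use.

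At the aldolase step, Aldoc had been seen to be higher in somatotropes. The 250 bases before the RefSeq start site of each aldolase gene are shown to set both genes side by side. They are from RefSeq windows on GRCm38, and 34 of the 36 genes had such a window. Capitals mark matches, on either strand, to the hypoxia response core ACGTG, the GC box GGGCGG and the TATA box TATAAA.
Aldoa (GRCm38 chr7:126799255-126799504, minus strand): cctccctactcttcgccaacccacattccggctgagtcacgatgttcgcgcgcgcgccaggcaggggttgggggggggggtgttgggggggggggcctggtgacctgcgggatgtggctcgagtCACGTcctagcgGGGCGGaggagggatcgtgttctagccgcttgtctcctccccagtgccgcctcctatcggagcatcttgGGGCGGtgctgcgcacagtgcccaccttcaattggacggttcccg
Aldoc (GRCm38 chr11:78323948-78324197, plus strand): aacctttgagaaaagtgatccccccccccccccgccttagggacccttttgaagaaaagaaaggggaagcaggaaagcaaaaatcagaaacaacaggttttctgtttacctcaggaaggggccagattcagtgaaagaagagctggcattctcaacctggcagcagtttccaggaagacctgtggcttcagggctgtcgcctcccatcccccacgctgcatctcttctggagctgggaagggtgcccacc
The Aldoa window held 1 match to the hypoxia response core and 2 to the GC box, while the Aldoc window held none of the 3 motifs. Of the 34 genes, 16 (47.1%) had ACGTG in at least 1 of their windows, against 18.5% of all 27025 genes with a window. GGGCGG was found for 21 of the 34 genes (61.8%, against 35.4% of all genes) and TATAAA for 2 (5.88%, against 14.3%). Several genes have more than 1 window, which favours a match in at least 1 of them. Counted per window, ACGTG was in 37.7% of the 53 windows of these genes, against 16.6% of all 32851 windows. For GGGCGG it was 45.3% against 32.7%, and for TATAAA 3.77% against 12.4%. Windows can overlap, and a match describes these letters only.

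Across both cell types the most abundant transcripts of the pathway were those of aldolase and pyruvate kinase. Aldoa, the aldolase of muscle and most other tissues (mm9 chr7:133938748-133942768, minus strand), had 228, 197 and 245 FPKM in somatotropes 1 to 3 and 300.3, 138 and 191 FPKM in lactotropes 1 to 3. Pkm2, the table's symbol for the pyruvate kinase gene of muscle, brain and most other tissues, had 110, 149 and 125 FPKM in somatotropes and 156, 88.2 and 56.7 FPKM in lactotropes. Aldoa was the highest member in somatotropes 1 and 3 and lactotropes 1 and 3, and Aldoc in somatotrope 2 and lactotrope 2. Tpi1, triose phosphate isomerase, stayed between 34.0 and 70.7 FPKM in all 6 libraries. Stretches nearly identical to Pkm2 lie in other genes, so its level is uncertain. Pyruvate kinase has a single row in the table, so its splice forms were not separated.

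**Figure D1:**
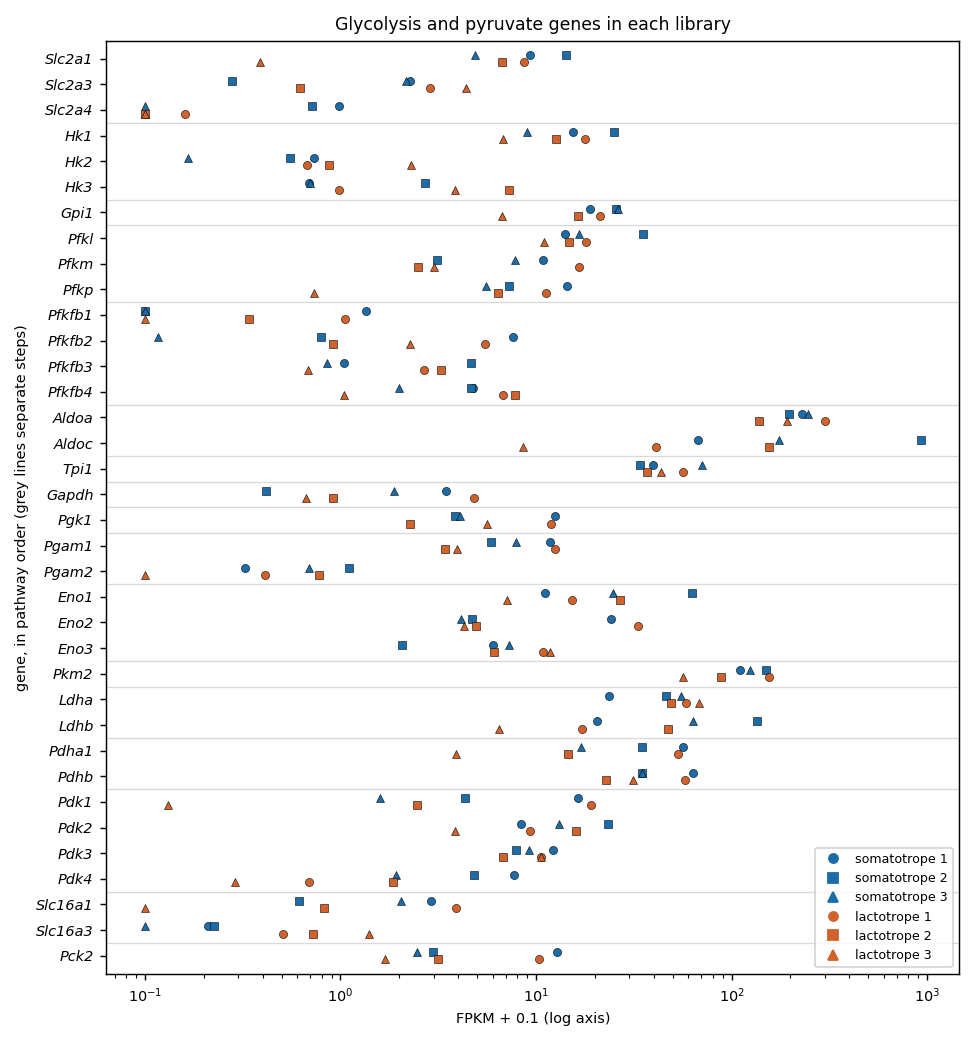
FPKM + 0.1 on a log axis for the 36 genes in pathway order, 1 point per library, with colour for the cell type and symbol for the replicate number. Aldoa and Pkm2 lie at 56.7 FPKM or above in every library, whereas Aldoc spans 8.49 to 926 FPKM and Gapdh stays at 4.70 FPKM or below.

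Several members had levels that cannot be read as the gene's abundance, because other annotated genes carry nearly the same sequence and no source used here gives the authors' handling of fragments that fit several places. Gapdh, the glyceraldehyde phosphate dehydrogenase that every glycolytic cell uses, was listed at 3.36, 0.318 and 1.79 FPKM in somatotropes and 4.70, 0.820 and 0.562 FPKM in lactotropes. Those values are below Tpi1, the preceding step, in every library. In the GRCm38 annotation, 77 pseudogenes held a stretch of at least 100 bases with at least 95% identity to the Gapdh transcript, and such stretches from other genes covered 87.96% of it. For Pgk1, phosphoglycerate kinase (2.17 to 12.4 FPKM), 4 pseudogenes covered 68.82% of the transcript. Ldha had 5 such pseudogenes (55.04% covered), while Pgam1, Ldhb, Pdhb and Tpi1 had 1 each (43.1%, 76.84%, 71.25% and 19.29%). Their part in the low levels was not tested. Near-identical stretches of other genes also covered 65.5% of Pkm2, 55.34% of Gpi1 and 51.92% of Pfkfb2. The matches to Pfkfb2 held 0 pseudogenes. Genes that overlap a member's own locus were not left out of the search, and such a match need not mean a second place in the genome. The levels of all the members named here, and the comparisons made with them below, carry these limits. For Pdk4, short matches to 9 other genes covered 3.76% of the transcript. By the same search no other gene matched Aldoa, Aldoc, Eno2, Eno3, Hk1, Hk2, Hk3, Pfkl, Pfkm, Pdk1, Pdk2, Pdk3 or Slc2a3.

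Eno1, the enolase of most tissues, shares its reads with a copy. A second row of the table, Gm5506, an older symbol of the retrogene Eno1b, stood at 1.06 to 1.08 times the Eno1 value in all 6 libraries, and 85.64% of the Eno1 transcript was covered by near-identical stretches of other genes. Fragments of the pair cannot be told apart here, so the Eno1 values below stand for both.

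Of the 3 glucose transporters among the 36 genes, Slc2a1, the widely expressed GLUT1, was the highest in 5 libraries. It had 9.19, 14.2 and 4.79 FPKM in somatotropes 1 to 3 and 8.58, 6.64 and 0.285 FPKM in lactotropes 1 to 3. Slc2a3, the high-affinity transporter typical of neurons, had 2.18, 0.178 and 2.06 FPKM in somatotropes and 2.78, 0.518 and 4.30 FPKM in lactotropes. Slc2a1 made up 69.9% to 94.7% of the 3 transporters' summed FPKM in 5 libraries, and in lactotrope 3 it made up 6.22% and Slc2a3 93.8%. Slc2a4, the insulin-responsive transporter of muscle and fat, was at or below 0.884 FPKM and was listed at 0 in somatotrope 3 and lactotropes 2 and 3. Among other glucose transporters, Slc5a2, the sodium-coupled SGLT2 of the kidney, had 10.3, 8.77 and 4.89 FPKM in somatotropes and 13.6, 7.18 and 4.74 FPKM in lactotropes, above Slc2a1 in every library except somatotrope 2. Slc2a13, a transporter of myo-inositol, had 18.3 FPKM in lactotrope 1. Slc5a2 was named after its values were seen. Slc2a1 is also abundant in the endothelium of some tissues, and 7 endothelial markers summed to 1.21 to 3.27 FPKM in somatotropes and 0 to 4.02 FPKM in lactotropes, with all 7 at 0 in lactotrope 3.

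Hexokinase traps glucose in the cell by phosphorylating it, and Hk1, its housekeeping form, led in all 6 libraries. It had 15.4, 24.9 and 8.88 FPKM in somatotropes and 17.7, 12.6 and 6.69 FPKM in lactotropes. Hk2, the form of insulin-responsive tissues and many tumours, did not exceed 0.770 FPKM in 5 libraries and had 2.20 FPKM in lactotrope 3. Hk3, the form of myeloid blood cells, had 0.587, 2.62 and 0.596 FPKM in somatotropes and 0.880, 7.17 and 3.76 FPKM in lactotropes, higher in lactotropes in all 3 replicate pairs. Hk1 therefore took 89.0% to 93.1% of hexokinase FPKM in somatotropes and in lactotrope 1 (92.4%), but 61.4% and 52.9% in lactotropes 2 and 3. The 12 leukocyte markers summed to 370, 7410 and 3840 FPKM in somatotropes 1 to 3 and 1047, 15942 and 5631 FPKM in lactotropes 1 to 3, and their part in the Hk3 values was not tested. In sorted pools such as these, fewer cells of a type and less RNA per cell cannot be told apart.

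Gpi1, phosphoglucose isomerase, had 18.7, 25.7 and 26.2 FPKM in somatotropes and 21.3, 16.3 and 6.58 FPKM in lactotropes. Phosphofructokinase, the main control point of glycolysis, is built from liver (Pfkl), muscle (Pfkm) and platelet (Pfkp) type subunits, and all 3 were present. Pfkl had 14.0, 35.1 and 16.4 FPKM in somatotropes and 18.0, 14.6 and 10.9 FPKM in lactotropes, and it led in every library except somatotrope 1, where Pfkp stood at 14.3 FPKM. Pfkm had 16.5 and 10.8 FPKM in the replicate 1 libraries and 2.40 to 7.74 FPKM in the others. The make-up was most even in replicate 1, with Pfkl at 35.9% and 39.5% in somatotrope 1 and lactotrope 1, and 55.5% to 77.4% elsewhere.

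The bifunctional PFKFB enzymes make and remove the sugar phosphate that activates phosphofructokinase. Pfkfb4 led in 4 libraries and Pfkfb2 in somatotrope 1 and lactotrope 3. In somatotrope 2, Pfkfb4 (4.554 FPKM) and Pfkfb3 (4.547 FPKM) were level, and another transcript row of Pfkfb3 stood at 4.592 FPKM. Pfkfb4 had 4.66, 4.55 and 1.89 FPKM in somatotropes and 6.68, 7.69 and 0.943 FPKM in lactotropes. Pfkfb2, the form abundant in heart, had 7.54, 0.696 and 0.0169 FPKM in somatotropes and 5.41, 0.820 and 2.17 FPKM in lactotropes. Pfkfb3, the inducible form with the strongest kinase activity, reached 4.55 FPKM in somatotrope 2, and Pfkfb1, the liver and muscle form, was listed at 0 in 3 libraries and reached 1.25 FPKM in somatotrope 1.

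Aldoc, the aldolase typical of brain (mm9 chr11:78137700-78140262, plus strand), was the member with the widest range. It had 67.6, 926 and 175 FPKM in somatotropes 1 to 3 and 40.9, 155 and 8.49 FPKM in lactotropes 1 to 3. The groups overlapped, since lactotrope 2 lay above somatotrope 1, but somatotropes were higher in each pair, by 1.65, 5.97 and 20.6 times. The mean was 390 ± 468 FPKM (SD, n = 3) in somatotropes and 68.2 ± 77.1 FPKM (SD, n = 3) in lactotropes, a ratio of means of 5.72. The log2(FPKM + 1) difference was 2.498, and it was 1.47 without somatotrope 2 and likewise 1.47 without lactotrope 3. Aldoc made up 22.9%, 82.5% and 41.6% of aldolase FPKM in somatotropes 1 to 3, against 12.0%, 53.0% and 4.25% in lactotropes 1 to 3. Aldoa itself differed little in mean, at 223 ± 24.5 FPKM (SD, n = 3) in somatotropes and 210 ± 82.8 FPKM (SD, n = 3) in lactotropes, so the share moved with Aldoc.

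Aldoc also marks astroglia and is expressed by other non-endocrine cells, and markers of such cells were unequal between the libraries. The 10 stem and folliculostellate markers summed to 245, 1670 and 1133 FPKM in somatotropes 1 to 3 and 131, 649 and 156 FPKM in lactotropes 1 to 3, with Mia1, the highest of them, at 127, 1432 and 843 FPKM and at 64.9, 453 and 123 FPKM. Among those at 0 in lactotrope 3 were S100b, Cxcl13 and Fxyd1, and Sox2 was at 0.0041 FPKM there. The 8 astroglia and pituicyte markers summed to 17.8 to 24.7 FPKM in somatotropes and 0.612 to 14.3 FPKM in lactotropes, with 0 to 2 of the 8 at 0 in 5 libraries and 6 at 0 in lactotrope 3. Gfap was at 0 in somatotrope 1 and lactotropes 1 and 3. Both sums were higher in the somatotrope library of each pair, and both were highest in somatotrope 2, as Aldoc was. Their part in the Aldoc difference was not tested.

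**Figure D2:**
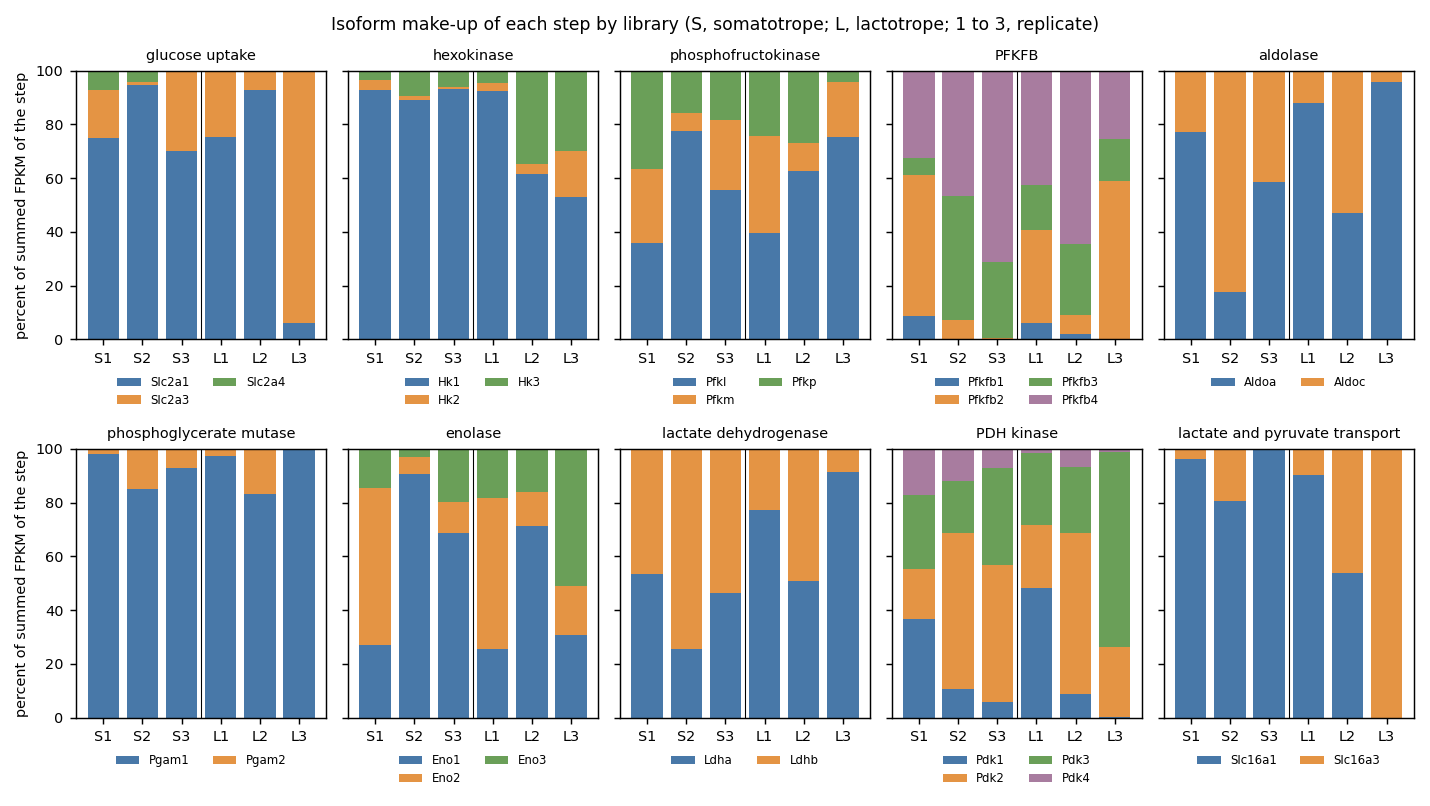
Percent of the summed FPKM of each of 10 steps taken by each isoform, 1 stacked bar per library, somatotropes (S1 to S3) left of the line and lactotropes (L1 to L3) right of it. Hk1 and Pgam1 fill most of their bars throughout, Aldoc and Ldhb are larger in the somatotrope bar of each replicate number, and Eno2 and Pdk1 are largest in S1 and L1.

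In the later steps of glycolysis, Pgam1, the general phosphoglycerate mutase, had 11.8, 5.80 and 7.79 FPKM in somatotropes and 12.4, 3.33 and 3.82 FPKM in lactotropes. Pgam2, the muscle form, did not exceed 1.00 FPKM. Eno2, the enolase of neurons and neuroendocrine cells, had 24.0 and 33.1 FPKM in somatotrope 1 and lactotrope 1 and 4.06 to 4.86 FPKM in the other 4 libraries. Eno1 had 11.01, 62.5 and 24.7 FPKM in somatotropes 1 to 3 and 15.1, 26.8 and 7.02 FPKM in lactotropes 1 to 3, lowest in lactotrope 3. Eno2 thus made up 58.6% and 56.2% of enolase FPKM in replicate 1 and 6.64% to 18.4% in replicates 2 and 3, and the Eno2 share split by replicate number and not by cell type. Eno3, the muscle enolase, had 5.91, 1.96 and 7.15 FPKM in somatotropes and 10.8, 5.98 and 11.6 FPKM in lactotropes, higher in lactotropes in all 3 pairs. The 7 skeletal muscle markers summed to 0.724 to 2.61 FPKM, with Tnnt3 at 0 in all libraries.

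Lactate dehydrogenase is a tetramer of the Ldha subunit, which favours making lactate from pyruvate, and the Ldhb subunit, which favours the reverse. Ldha (mm9 chr7:54102452-54110997, plus strand) had 23.4, 45.9 and 54.9 FPKM in somatotropes and 58.1, 48.9 and 68.1 FPKM in lactotropes. Ldhb (mm9 chr6:142438769-142456463, minus strand) had 20.4, 134 and 63.2 FPKM in somatotropes and 17.1, 47.1 and 6.37 FPKM in lactotropes. Each pair had more Ldha in the lactotrope library and more Ldhb in the somatotrope library, and for each gene the groups overlapped. Ldhb made up 46.5%, 74.5% and 53.5% of the sum in somatotropes 1 to 3, against 22.7%, 49.1% and 8.55% in lactotropes 1 to 3, a mean of 58.2 ± 14.6% (SD, n = 3) against 26.8 ± 20.6% (SD, n = 3). Both genes have near-identical pseudogenes, as given above, so their levels and this share are uncertain. The share was 31.4 percentage points higher in somatotropes, and a two-sided exact permutation test of 3 against 3 libraries gave p = 0.2 (adjusted p = 0.6 over the 9 steps tested). With 3 libraries against 3, such an exact test cannot go below p = 0.1.

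At the entry to the mitochondria, Pdha1 and Pdhb, the alpha and beta subunits of pyruvate dehydrogenase, had 16.9 to 56.2 and 34.9 to 63.4 FPKM in somatotropes and 3.79 to 53.0 and 22.6 to 57.4 FPKM in lactotropes. Both were higher in the somatotrope library of each pair and highest in the replicate 1 libraries. The PDH kinases, which switch the enzyme off by phosphorylation, were all 4 present. Pdk2, the most widely expressed of them, had 8.33, 23.3 and 12.98 FPKM in somatotropes and 9.22, 16.0 and 3.75 FPKM in lactotropes. Pdk1, a known hypoxia-induced gene, had 16.3 and 18.9 FPKM in the replicate 1 libraries and 0.0319 to 4.26 FPKM in the others, so that Pdk1 exceeded Pdk2 in replicate 1 and not elsewhere. Pdk3 was even in level, at 6.66 to 12.1 FPKM. Its share of PDH kinase FPKM was 72.5% in lactotrope 3, where it led, and 19.4% to 36.0% elsewhere.

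Pdk4, the kinase induced by fasting and fatty acids (mm9 chr6:5433351-5446278, minus strand), was the only tested member whose groups did not overlap. It had 7.64, 4.73 and 1.82 FPKM in somatotropes 1 to 3 and 0.591, 1.75 and 0.190 FPKM in lactotropes 1 to 3, where the lowest somatotrope and the highest lactotrope value lay close together. The means were 4.73 ± 2.91 and 0.843 ± 0.809 FPKM (SD, n = 3), and somatotropes were 12.9, 2.71 and 9.58 times higher in the 3 pairs. Over all tested genes, 2.51% had every somatotrope library above every lactotrope library and 1.15% the reverse. On the log2(FPKM + 1) scale, which understates changes of low genes, the difference was 1.58 (SE 0.73), and it did not pass limma's test (adjusted p = 1.00) or limma with the replicate block (adjusted p = 0.290).

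Slc16a1 and Slc16a3 encode MCT1 and MCT4, monocarboxylate transporters that carry lactate and pyruvate across the plasma membrane, and both stayed below 4 FPKM. Slc16a1 had 2.80, 0.517 and 1.94 FPKM in somatotropes and 3.78 and 0.728 FPKM in lactotropes 1 and 2, and was listed at 0 in lactotrope 3. Slc16a3, the form of strongly glycolytic cells, had 0.110 and 0.124 FPKM in somatotropes 1 and 2, a listed 0 in somatotrope 3, and 0.409, 0.627 and 1.30 FPKM in lactotropes 1 to 3. Slc16a7, the related transporter MCT2, named after its values were seen, had 6.84, 0.520 and 1.85 FPKM in somatotropes and 4.34, 1.41 and a listed 0 FPKM in lactotropes. It lay above Slc16a1 in somatotropes 1 and 2 and lactotropes 1 and 2, and it is not part of the Slc16a1 share given below. All lactotrope values of Slc16a3 lay above all somatotrope values, but its mean was under 1 FPKM and it was not in the test over all genes. Pck2, the mitochondrial enzyme that makes phosphoenolpyruvate, had 12.7 and 10.3 FPKM in the replicate 1 libraries and 1.58 to 3.07 FPKM in the others.

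The order of isoforms within a library does not depend on how the library was scaled, and it was compared for 11 pairs of isoforms. Only 3 pairs kept one order in all 6 libraries: Hk1 lay above Hk2, Pfkl above Pfkm and Pgam1 above Pgam2. The mean log2 ratio, of FPKM + 1, was 3.08 ± 0.98 for Hk1 over Hk2, 1.40 ± 1.16 for Pfkl over Pfkm and 2.43 ± 0.82 for Pgam1 over Pgam2 (SD, n = 6). A two-sided exact sign-flip permutation test gave p = 0.03125 for each, the smallest that 6 libraries allow, and an adjusted p of 0.115 over the 11 pairs, so none passed. Libraries that share a replicate number resembled each other and are not fully independent in this test. Pfkl lay above Pfkp in every library except somatotrope 1, and both Slc2a1 above Slc2a3 and Slc16a1 above Slc16a3 held in every library except lactotrope 3.

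For 3 pairs the order followed the replicate number. Eno2 exceeded Eno1, and Pdk1 exceeded Pdk2, in both replicate 1 libraries and in no other. For aldolase, Aldoc exceeded Aldoa in somatotrope 2, by 4.70 times, and in lactotrope 2, by 1.13 times, and was lower in the other 4 libraries. For lactate dehydrogenase, Ldhb exceeded Ldha in somatotropes 2 and 3, and Ldha was the higher in somatotrope 1 and in lactotropes 1 and 3. In lactotrope 2, Ldha (48.9 FPKM) and Ldhb (47.1 FPKM) were nearly level. Another transcript row of Ldha stood at 43.7 FPKM there, below Ldhb, so the order in that library depends on the row.

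**Figure D3:**
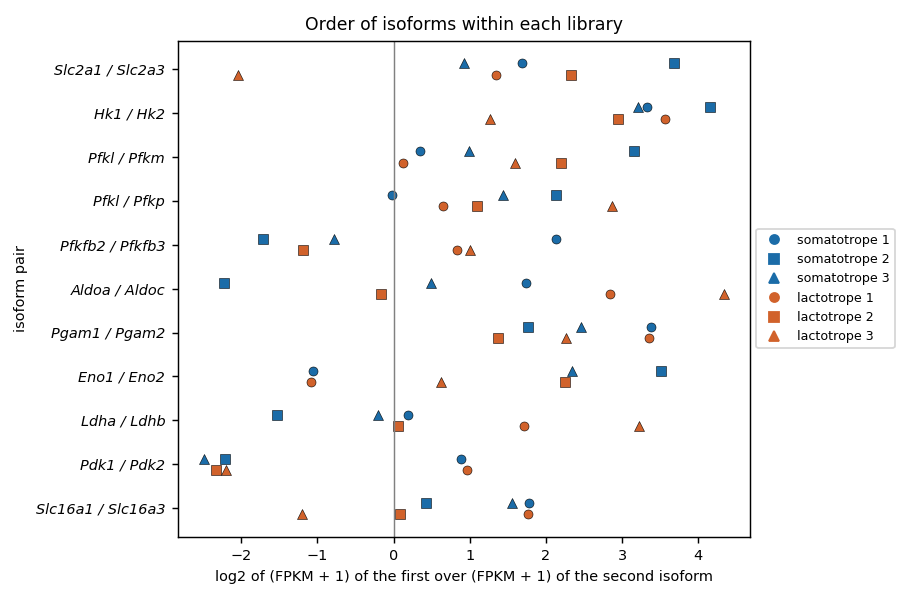
Log2 of the ratio of FPKM + 1 of the first isoform to that of the second within each library for 11 pairs, with the line at equal level. All 6 points lie right of the line for Hk1 over Hk2, Pfkl over Pfkm and Pgam1 over Pgam2, and the circles (replicate 1) lie apart from the squares and triangles for Eno1 over Eno2 and Pdk1 over Pdk2.

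The share of 1 named isoform at each of 9 steps was also compared between the cell types, aldolase being left out of the test. No step passed the exact permutation test, and the smallest p was 0.2 (adjusted p = 0.6), for Hk1, Ldhb and Slc16a1, each with a higher share in the somatotrope library of all 3 pairs. The Hk1 share averaged 91.6 ± 2.24% in somatotropes and 68.9 ± 20.8% in lactotropes (SD, n = 3). The Slc16a1 share, of Slc16a1 and Slc16a3 alone, averaged 92.3 ± 10.3% and 48.0 ± 45.4%, and rested on levels near 1 FPKM. Within pairs, a sign-flip permutation test over the 3 replicate numbers gave p = 0.25 for these 3 steps, the smallest it allows.

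In the comparison of the cell types over all 11642 tested genes, limma called 0% of them and 0 of the 31 members at an adjusted p of 0.05. At an unadjusted p under 0.05 there were 2 members, Aldoc and Pdk4, where 0.962% of all tested genes were below it. With the replicate number as a block limma again called 0%, and 7 members had an unadjusted p under 0.05, against 10.9% of all tested genes. Those were Aldoc, Ldhb, Pdha1, Pdk4 and Slc2a1, higher in somatotropes, and Eno3 and Hk3, higher in lactotropes. Without somatotrope 1 limma called 0.0258% of all tested genes and 1 member, Aldoc. Because the members were chosen with this contrast known, nothing is read from these counts.

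The median log2 difference, somatotrope minus lactotrope, was 0.30 over the 31 members and 0.18 over all tested genes, with 22 members above 0 and 9 below. The share of all tested genes above 0 was not computed, so nothing is read from the counts of members above and below 0. After median-ratio scaling these medians were 0.14 and 0.05, with 18 members above 0 and 13 below. Without lactotrope 3 they were 0.014 and -0.13, with 16 members above 0 and 15 below, and without somatotrope 1 they were 0.12 and -0.12, with 18 above and 13 below. In all 3 pairs, 7 members were higher in somatotropes (Slc2a1, Pfkp, Aldoc, Ldhb, Pdha1, Pdhb and Pdk4), where 22.9% of all tested genes were. Another 5 were higher in lactotropes in all 3 (Slc2a3, Hk3, Eno2, Eno3 and Ldha), where 11.2% of all tested genes were. The difference was 1.62 (SE 0.79) for Ldhb, 1.08 (SE 0.83) for Slc2a1 and 1.06 (SE 0.81) for Pdha1, and without lactotrope 3 it was 0.95, 0.17 and 0.20. On the lactotrope side it was -0.999 (SE 0.77) for Hk3, -0.88 (SE 0.68) for Eno3 and -0.56 (SE 0.55) for Ldha.

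**Figure D4:**
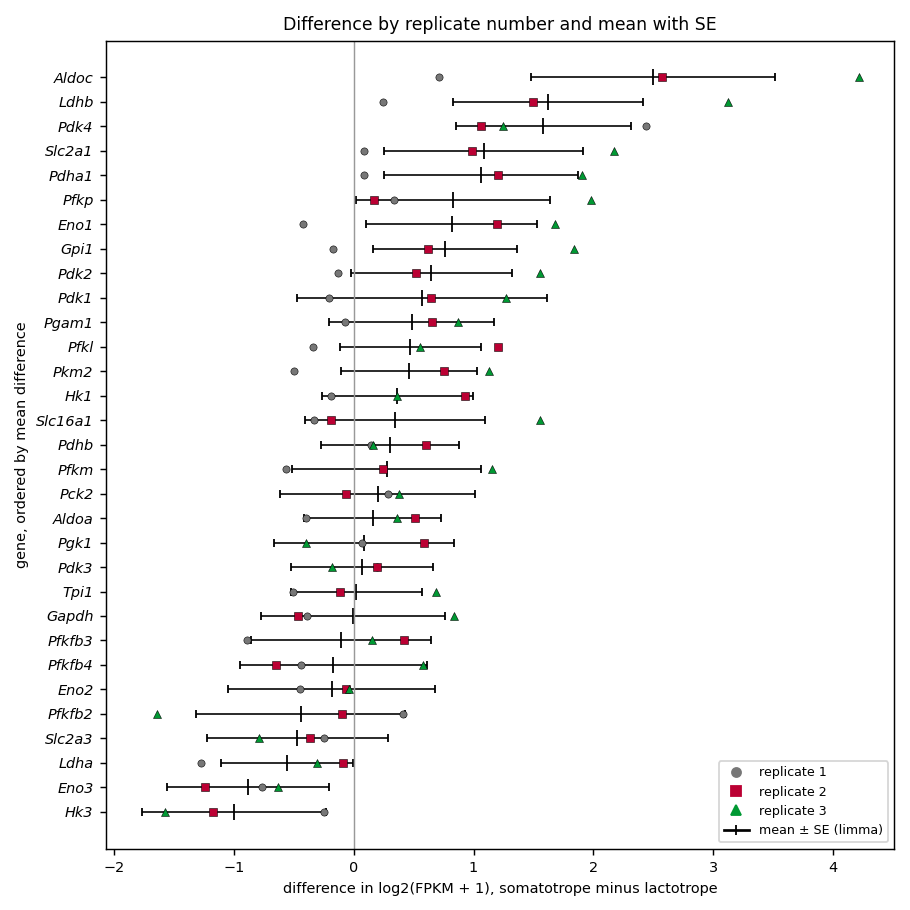
Difference in log2(FPKM + 1), somatotrope minus lactotrope, for the 31 tested genes, with 1 coloured point per replicate number and a black bar for the mean with its SE from limma. Aldoc, Ldhb and Pdk4 lie farthest to the right and Hk3 and Eno3 farthest to the left, and for Aldoc, Ldhb and Slc2a1 the replicate 1 point is nearest to 0 and the replicate 3 point farthest.

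The replicate number also went with the level of some members, but of a smaller part than over all tested genes. Both replicate 1 libraries lay above the other 4 for 12 of the 31 members, against 57.7% of all tested genes, and below them for none, against 4.49%. Those 12 were Pfkm, Pfkp, Pfkfb2, Gapdh, Pgk1, Pgam1, Eno2, Pdha1, Pdhb, Pdk1, Slc16a1 and Pck2. Another 8, namely Slc2a1, Hk1, Pfkl, Pfkfb3, Aldoc, Eno1, Ldhb and Pdk2, had their highest value in somatotrope 2. Lactotrope 3 was the lowest library for 17 of the 31, and 14.94% of all tested genes were listed at 0 there. The shares of all tested genes highest in somatotrope 2 or lowest in lactotrope 3 were not computed, so nothing is read from these counts. As a share of each library's summed FPKM without Gh and Prl, the 36 genes took 0.392%, 1.08% and 0.634% in somatotropes 1 to 3, against 0.453%, 0.402% and 0.402% in lactotropes 1 to 3. With Aldoc also left out, the shares were 0.36%, 0.529% and 0.516% against 0.434%, 0.314% and 0.395%, and the cell types overlapped.

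Genes that neighbour the pathway were followed in 10 further lists, in which limma called no gene with or without the replicate block (0% of all tested genes). All 5 tested genes of gluconeogenesis and 15 of 18 of the citric acid cycle had positive differences, with medians of 0.45 and 0.38. After median-ratio scaling it was 4 of 5 and 11 of 18, with medians of 0.30 and 0.19, beside 0.05 over all tested genes. The share of all tested genes with a positive difference was not computed, so nothing is read from the counts of positive genes given here. Without lactotrope 3 the citric acid cycle had 9 positive and 9 negative members and a median of -0.02. Of 7 other pyruvate dehydrogenase genes 6 were positive (median 0.51), and without lactotrope 3 it was 4 (median 0.038). Of 5 genes of gluconeogenesis 3 were positive without that library (median 0.29). Of 10 hypoxia-induced genes outside glycolysis 9 were positive with and without it (medians 0.47 and 0.25). Medians were 0.47 for 9 genes of lactate, pyruvate and glycerol phosphate handling, 0.22 for 7 other glycolytic genes, 0.09 for 14 regulators such as the hypoxia factors, 0.04 for 9 glycogen genes, -0.02 for 3 other glucose transporters and -0.10 for 6 genes of the pentose phosphate pathway, beside 0.18 over all tested genes. Without lactotrope 3 the same medians, in this order, were 0.15, 0.16, -0.36, -0.31, -0.60 and -0.34, beside -0.13 over all tested genes.

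Among these neighbours, Galm, which interconverts the ring forms of hexoses before hexokinase, had 5.59, 18.6 and 10.2 FPKM in somatotropes and 2.43, 6.83 and a listed 0 FPKM in lactotropes. Its log2 difference was 1.92 (SE 0.83). Fbp2, the muscle fructose bisphosphatase that opposes phosphofructokinase, had 3.54, 13.4 and 10.8 FPKM in somatotropes and 3.33, 7.49 and 0.0157 FPKM in lactotropes. Gpt, which converts pyruvate to alanine, had 2.89, 1.57 and 10.3 FPKM against 1.56, 1.30 and 0.413 FPKM. Its groups did not overlap, but somatotrope 2 (1.567 FPKM) and lactotrope 1 (1.556 FPKM) were nearly level. Myc, a transcription factor that activates glycolytic genes in many cells, went the other way without overlap, with 2.55, 3.75 and 1.64 FPKM in somatotropes and 5.98, 6.22 and 4.64 FPKM in lactotropes. Such a lack of overlap was found for 2.51% of all tested genes with somatotropes above and for 1.15% with lactotropes above. Both genes were named for a small p in their lists, so nothing is read from it. Bnip3, a mitophagy gene induced by hypoxia, had 104.8, 14.6 and 23.2 FPKM in somatotropes and 41.7, 10.5 and 8.84 FPKM in lactotropes. None of these 5 genes passed limma's test (adjusted p = 1.00 for each), and with the replicate block their adjusted p was 0.312 to 0.463.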

How the data were processed

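The file deposited by the authors holds FPKM for 30399 RefSeq transcripts, in 1 column per library named as in the sample descriptions. The build was mm9, and the tools named in the submitters' processing notes are TopHat, edgeR and bcl2fastq (2.17.1.14). For how fragments were counted, and how those that fit several places were treated, no statement is given in the sources used here. FPKM are not counts, so no count test was run. The 889 rows without a symbol were left out.

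Genes whose mean reached 1 FPKM (11642) were tested on the log2(FPKM + 1) scale with limma 3.58.1 in R 4.3.3 (intensity trend, Benjamini-Hochberg adjustment over all these genes at 0.05, no block), somatotrope minus lactotrope. Samples with the same replicate number in the titles deviated together from their group means (across genes, r = 0.763 in replicate 1, 0.613 in replicate 2 and 0.341 in replicate 3). The blocked fit is therefore given where it changes a call or moves a count. Isoform shares and ratios were computed within libraries and tested with exact permutation tests (scipy 1.17.1). Near-identical genes were searched with BLAST+ 2.17.0 in GENCODE M21 transcripts. Code was tested on simulated data.

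The members, isoform pairs and lists were chosen with earlier results of these data known. Every member could be named, and of each neighbouring list up to 2 tested genes with the smallest unadjusted p. Examples of the latter are given. Of marker lists the 2 most abundant genes could be named, and markers at or near 0 are named beside them, chosen after their values were seen. The value of 1 marker is not reported here. The lists of somatotrope and lactotrope markers (summed levels of 19426 to 85135 against 4058 to 7636 FPKM, and of 8715 to 24498 against 25184 to 195499 FPKM) and of fibroblast and mural markers (28.7 to 59.4 against 21.8 to 71.4 FPKM) were used only to describe the libraries. Alternatives were another pseudocount, filter, scaling, variance weights, the block, summed rows and leaving out libraries.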

Additional observations from a re-analysis of the deposited data

How the results depend on the processing

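The number of genes passing limma's test, 0 as reported, was 9 with array weights and 0 to 3 with 1 library or 1 replicate number left out, 3 of them without somatotrope 1. It was 0 with another pseudocount, filter or scaling and with summed rows. Of the members, 0 to 1 passed with libraries left out. That 1 was Aldoc without somatotrope 1, on a contrast that had chosen it. With the replicate block, limma called 0 genes and 0 members, and the block changed no call of a member. The count of isoform pairs in one order (3) was 2 with all rows of a gene summed, where the 3 rows of Pfkm, of like level, together exceeded Pfkl in some libraries, and 3 to 6 with libraries left out, 6 without replicate 1 and 5 without replicate 3 or without lactotrope 3 alone.

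The log2 difference of 16 of the 31 tested members kept its sign in every alternative run, 13 of them positive. It turned to -0.041 for Aldoa, -0.12 for Pdk3, -0.082 for Pgk1 and -0.17 for Tpi1 under median-ratio scaling, to -0.092 for Pdk3, -0.030 for Pgk1 and -0.18 for Tpi1 under quantile normalization, and to 0.011 for Gapdh and 0.061 for Slc2a3 with array weights. With libraries left out it ran from -0.11 to 0.45 for Aldoa, -0.93 to 0.69 for Eno2, -0.43 to 0.58 for Gapdh, -0.44 to 0.80 for Pck2, -0.43 to 1.71 for Pdk1, -0.12 to 0.20 for Pdk3, -1.34 to 0.19 for Pfkfb2, -0.64 to 0.28 for Pfkfb3, -0.86 to 0.22 for Pfkfb4, -0.16 to 1.03 for Pfkm, -0.015 to 1.43 for Pfkp, -0.42 to 0.58 for Pgk1, -0.26 to 0.97 for Slc16a1 and -0.31 to 0.29 for Tpi1. For the differences in isoform share, in percentage points, the range was -4.07 to 39.2 for Slc2a1, -13.5 to 7.27 for Pfkl, -29.5 to 9.0 for Pfkfb2, -1.96 to 6.67 for Pgam2, -20.2 to 9.89 for Eno2 and -3.14 to 18.2 for Pdk2. The causes were not tested. The depth of the libraries is unknown, so no limit can be set for a value listed at 0.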
